A study of Mus musculus with 4 samples.

Results

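The 10 genes described here are marker genes of oligodendrocyte precursor cells: the transcription factors Olig1, Olig2 and Nkx2-2, the cell surface proteins Pdgfra, Cspg4, Gpr17 and Ramp1, and Bcas1, Matn4 and Scrg1. They were selected on their measured signals in the very contrast reported here, so their own differences are given as a description and without a test. All 10 were on the array, on 17 of its 45037 probe sets, where several short probes that target a transcript make up a set. The platform annotation named 1 gene for each of the 17, and 6 of the genes had 1 probe set each.

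Oligodendrocyte precursors arise from neuroepithelial cells of the ventral forebrain, later joined by precursors from dorsal regions, and they spread through the whole telencephalon before they mature and make myelin. Olig1, Olig2 and Nkx2-2 are DNA-binding factors that specify the lineage and steer its maturation, and hedgehog signals switch on Olig2 and Nkx2-2 in ventral progenitors. PDGF, acting through the receptor encoded by Pdgfra, keeps precursors dividing, whereas Gpr17 marks the cells that are about to mature.

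The data are 4 single-colour arrays of total RNA from neuroepithelial cells of ICR mouse telencephalon. On 2 arrays the cells came from embryonic day 14.5 (E14.5) and had grown for 4 days, and on 2 arrays they came from embryonic day 11.5 (E11.5) and had grown for 1 day. Embryonic age and time in culture thus change together and cannot be told apart, and all cultures received 10 ng/ml basic FGF on polyornithine and fibronectin. The labels do not say that replicates came from separate cultures or how many embryos were pooled, so each p-value reflects array-to-array spread alone, possibly technical, and the number of arrays limits the precision.

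Trimmed mean intensities of the arrays, as deposited, were 154 and 103 at E14.5, against 187 and 252 at E11.5. Signals were therefore multiplied by 1 factor per array to a common trimmed mean of 165, and each value below is such a scaled signal. Differences are on the log2(signal + 12.2) scale, E14.5 minus E11.5. The constant 12.2 is a pseudocount that damps differences between very low signals. Replicate arrays had a correlation of log2 signals, over the probe sets tested, of 0.969 at E14.5 and 0.975 at E11.5, whereas arrays of different groups had 0.885 to 0.909. The ratio of 3' to 5' Gapdh probe sets, a sign of RNA quality, was 0.825 and 0.879 at E14.5, against 0.806 and 0.808 at E11.5.

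RefSeq promoter windows (build GRCm38.p6) were found for 6 of the 10 genes, with 7 windows in all, since Matn4 has a pair of start sites. The 250 bases before the start of 3 of these genes are shown, because the 3 were high together at E14.5 and stand for the lineage factors and the growth factor receptor. Capitals mark E-boxes (CANNTG), the motif read by basic helix-loop-helix proteins such as Olig1 and Olig2.
Olig2, chr16:91225300-91225549, plus strand: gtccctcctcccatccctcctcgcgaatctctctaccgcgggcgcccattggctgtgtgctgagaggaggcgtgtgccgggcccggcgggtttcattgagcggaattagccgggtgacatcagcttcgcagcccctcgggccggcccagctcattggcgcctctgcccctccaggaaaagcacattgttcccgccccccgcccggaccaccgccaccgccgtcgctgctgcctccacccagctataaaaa
Nkx2-2, chr2:147186403-147186652, minus strand: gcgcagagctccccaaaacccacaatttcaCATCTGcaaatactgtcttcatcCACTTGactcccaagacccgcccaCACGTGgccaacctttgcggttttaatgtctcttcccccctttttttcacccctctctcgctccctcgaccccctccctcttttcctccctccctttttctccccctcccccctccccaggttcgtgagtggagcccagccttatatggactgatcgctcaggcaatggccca
Pdgfra, chr5:75152001-75152250, plus strand: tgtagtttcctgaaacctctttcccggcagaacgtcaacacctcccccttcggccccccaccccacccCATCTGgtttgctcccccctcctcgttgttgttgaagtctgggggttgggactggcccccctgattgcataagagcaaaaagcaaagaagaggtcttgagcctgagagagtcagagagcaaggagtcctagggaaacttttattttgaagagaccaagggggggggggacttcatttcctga

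Searched on both strands, an E-box occurred in 4 of the 7 windows of these genes, against 66.2% of all 32851 windows of the same length. The Nkx2-2 window held 3 of them, of which CACGTG is a motif found in 6.02% of all windows. The Pdgfra window held 1 E-box, CATCTG. The Ramp1 window held 1, CACCTG, and 1 of the Matn4 windows held 1, CACATG. None was present in the Olig2, Cspg4 and other Matn4 windows. The E-box CAGCTG occurred in 0 of the 7 windows, against 13% of all windows, and the E-box CATATG in 0 of the 7, against 3.46% of all. The Sox motif ACAATG was in the Olig2 window (10.7% of all windows) and the Sox motif ACAAAG in the Ramp1 window (16.5% of all). The Nkx2 motif CACTTNA was in the Nkx2-2 window (10.1% of all), where it overlaps an E-box, and the Gli motif GACCACCCA was in 0 of the 7 (0.225% of all). With 7 windows these counts are descriptions of the letters present.

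The lineage factors were far brighter at E14.5. At E11.5, Olig1 and Olig2 were well above the pseudocount, whereas Nkx2-2 was only slightly above it. Olig1, which supports the maturation of oligodendrocytes, had scaled signals of 7096 and 8574 on the E14.5 arrays, against 424 and 339 on the E11.5 arrays. Olig2, the factor that specifies the lineage, had 2966 and 3201 at E14.5, against 252 and 164 at E11.5. Both genes lay well clear of overlap, with means 20.6 and 14.8 times as high at E14.5 and log2 differences of 4.32 and 3.84. Nkx2-2, a homeobox factor that promotes differentiation of precursors, had 405 and 351 at E14.5, against 20.6 and 23.4 at E11.5. Its lowest E14.5 signal was 15.0 times its highest E11.5 signal, and its log2 difference of 3.51 was the smallest among the brightest probe sets of the 10 genes.

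Among the surface proteins, Pdgfra had 2913 and 3181 at E14.5, against 74.3 and 66.2 at E11.5, on its brightest probe set. The means differed 43.3-fold, and the log2 difference was 5.21. Gpr17, a G protein-coupled receptor of precursors about to mature, had 1674 and 2066 at E14.5, against 2.64 and 1.23 at E11.5. Gpr17 was thus bright on both E14.5 arrays and below the pseudocount on both E11.5 arrays, where signals have little meaning. With the E11.5 level set at the pseudocount, its E14.5 mean was at least 154-fold higher, and the log2 difference of 7.05 was the largest of the 10. Cspg4, the NG2 proteoglycan on the surface of precursors, had 340 and 409 at E14.5, against 9.20 and 3.96 at E11.5. This is at least 30.7-fold higher by the same bound, with a log2 difference of 4.37. Ramp1, a membrane protein that joins the calcitonin receptor-like receptor to form the receptor for CGRP, had 730 and 758 at E14.5, against 13 and 8.66 at E11.5. Its E14.5 mean was at least 61.1-fold higher by the same bound on means, and its log2 difference was 5.05. Its lowest E14.5 signal was 56.3 times its highest E11.5 signal, which lay just above the pseudocount. The E14.5 arrays agreed most closely for this gene.

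The remaining genes showed the same order of groups. Bcas1, a protein of newly forming oligodendrocytes, had 1489 and 1099 at E14.5, against 40.8 and 56.7 at E11.5, a log2 difference of 4.42. Matn4, a matrilin of the extracellular matrix, had 417 and 383 at E14.5, against 1.48 and 3.30 at E11.5. Scrg1, a small secreted protein first found in scrapie-infected brain, had 368 and 240 at E14.5, against 3.49 and 1.84 at E11.5. Matn4 and Scrg1 thus sat below the pseudocount at E11.5, which puts their E14.5 means at least 32.9-fold and 25-fold higher, with log2 differences of 4.82 and 4.38. In bulk RNA, more cells of a type and more RNA per cell cannot be told apart, and this holds for every gene here.

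**Figure D1:**
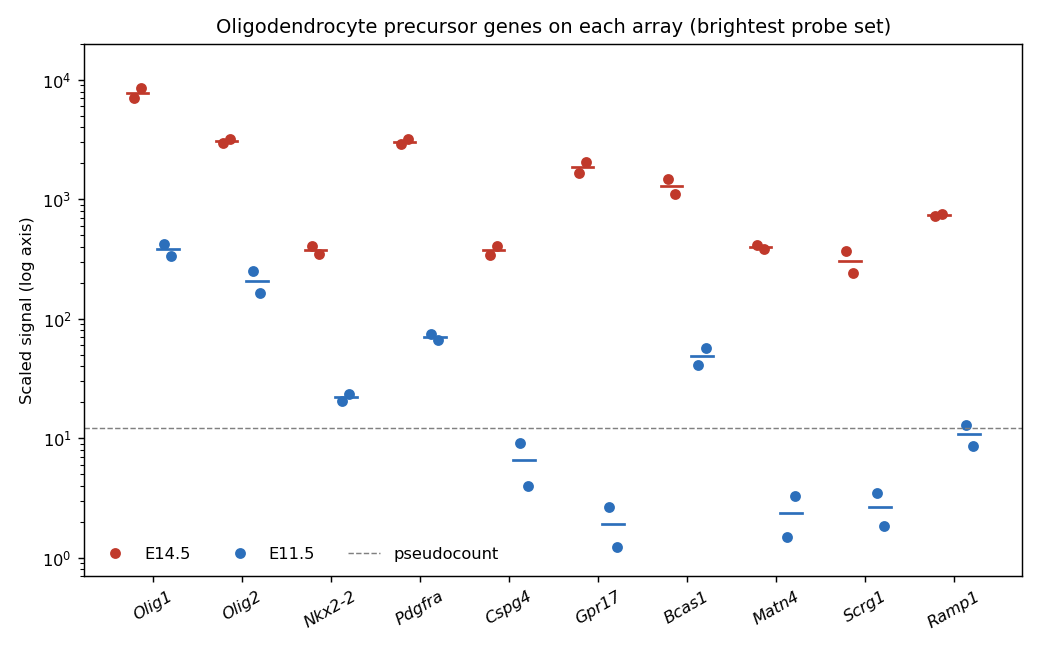
Scaled signal (log axis) of the brightest probe set of each of the 10 genes on the 2 E14.5 arrays (red, left) and the 2 E11.5 arrays (blue, right), with short lines for group means and a dashed line at the pseudocount of 12.2. All E14.5 points lie above all E11.5 points of the same gene, and 5 of the genes have an E11.5 mean below the dashed line.

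On the brightest probe set of each gene, both E14.5 arrays lay above both E11.5 arrays for 10 of 10 genes, and over all probe sets of these genes for 15 of 17. Of all 45037 probe sets, 26.7% had this order. A log2 difference of 2 or more was reached by 13 of the 17 probe sets, against 0.779% of all probe sets. The median difference was 4.40 over the 10 brightest probe sets and 3.91 over the 17, against 0.020 over all probe sets. Since the genes were selected on this comparison, these shares describe the selection.

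Probe sets of 1 gene did not always show the same size of difference. The 3 of Pdgfra had log2 differences of 5.21, 3.91 and 2.08 in order of brightness, and at the dimmest the signals were 118 and 176 at E14.5, against 19.8 and 30.7 at E11.5. The 2 of Cspg4 gave 4.37 and 3.19. The second one had 281 and 378 at E14.5, against 45.5 and 11.7 at E11.5, so its E11.5 arrays stood 1.27 apart on the log2 scale. Bcas1 had 1 bright probe set and a dim pair: 1453641_at had 39.3 and 18.2 at E14.5, against 26.1 and 30.5 at E11.5, and its groups overlapped. The other, 1430758_x_at, had 28.3 and 28.4 at E14.5, against 1.07 and 19.9 at E11.5. Averaged over its 3 probe sets, Bcas1 had a difference of 1.79, against 4.42 on the bright one. Ramp1 also had 2 dim probe sets, 1431413_at with 40.2 and 35.8 at E14.5, against 12.5 and 5.07 at E11.5, and 1447474_at, whose groups overlapped. Averaged over its 3 probe sets, Ramp1 had a difference of 2.29. The filter on low signals used for the tests (a mean of at least 26.0) left out 3 of the 17, the pair of dim Ramp1 probe sets and 1430758_x_at of Bcas1. Which transcripts of these genes each probe set detects was not tested.

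**Figure D2:**
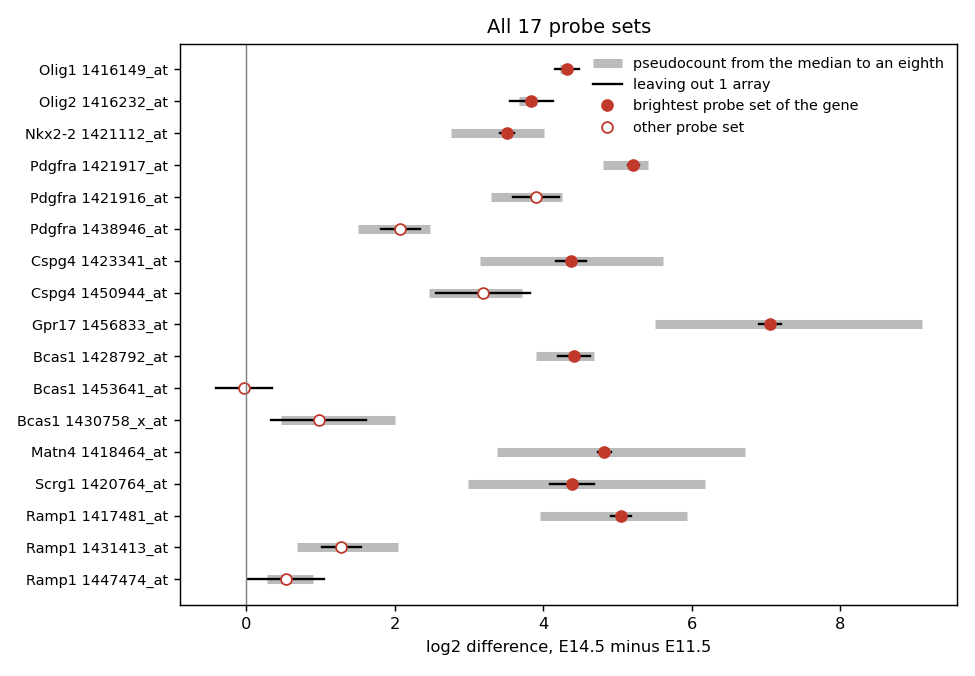
Log2 difference, E14.5 minus E11.5, of all 17 probe sets, filled for the brightest of each gene. Grey bars span the difference with the pseudocount at the median of all signals and at an eighth of 12.2, and black lines the range when 1 array is left out: Gpr17 runs from 5.50 to 9.10 along its grey bar, whereas Olig1 runs only from 4.23 to 4.36.

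How large each difference came out depended on the pseudocount for the genes that were dim at E11.5. With the pseudocount at the median of all signals or at an eighth of 12.2, the difference of Matn4 was 3.38 or 6.72, that of Scrg1 2.99 or 6.19, that of Cspg4 3.15 or 5.61 and that of Ramp1 3.95 or 5.94. The genes that were brighter at E11.5 moved less, with 3.68 or 3.91 for Olig2, 4.81 or 5.41 for Pdgfra, 3.90 or 4.69 for Bcas1 and 2.75 or 4.01 for Nkx2-2. Order among the 10 genes by size of difference is therefore not settled. With 1 array left out, the difference stayed within 4.16 to 4.48 for Olig1, 3.55 to 4.13 for Olig2, 3.41 to 3.61 for Nkx2-2 and 5.14 to 5.28 for Pdgfra. It stayed within 6.90 to 7.20 for Gpr17, 4.73 to 4.91 for Matn4 and 4.09 to 4.68 for Scrg1.

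Between replicate arrays the 10 genes differed little compared with the gap between groups, on which they were selected, so this comparison describes the selection. On their brightest probe sets, the E14.5 arrays stood 0.054 (Ramp1) to 0.59 (Scrg1) apart on the log2 scale, and the E11.5 arrays at most 0.58 apart (Olig2). Over all 27022 probe sets that passed the filter, 95% of differences between replicates were below 0.92 at E14.5 and below 0.79 at E11.5. Their medians were 0.22 at E14.5 and 0.20 at E11.5. The lowest E14.5 signal exceeded the highest E11.5 signal 11.8-fold for Olig2, the smallest gap of the 10. The genes did not all lean to the same E14.5 array: Nkx2-2, Bcas1, Matn4 and Scrg1 were higher on replicate 1 and the other 6 on replicate 2.

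Among genes outside the group, likeness was measured as the distance between mean-centred log2 signals over the 4 arrays and the average profile of the 10. The 8 nearest named genes were Egfr, Ppp1r3c, Rlbp1, Ets1, Lhfpl3, Pla2g7, Kcnip3 and Cbr3, at distances of 0.18 to 0.66. For comparison, the 10 genes themselves lay 0.26 (Matn4) to 2.37 (Gpr17) from their own average. Egfr, the receptor for EGF, had 2564 and 2475 at E14.5, against 99.2 and 95.3 at E11.5. Ets1, a transcription factor, had 632 and 815 at E14.5, against 28.0 and 24.0 at E11.5. Lhfpl3, a membrane protein highly expressed in oligodendrocyte precursors, had 1159 and 1640 at E14.5, against 49.9 and 60.7 at E11.5. With 4 arrays in 2 groups, a small distance says little more than a difference of similar size between the groups.

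Genes outside the group were tested in limma over all probe sets, each gene by its brightest probe set, at an adjusted p of 0.05. Of 12952 genes, 14.3% were higher and 13.6% lower at E14.5, with a median difference of 0.029. By probe sets, 3012 were higher and 3396 lower. With arrays left as deposited, 400 were higher and 4929 lower, and the median of all probe sets shifted to -0.71, so each direction below holds relative to the mean brightness to which the arrays were set.

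Other transcriptional regulators of the lineage were mostly higher at E14.5. Of 20 tested, 11 rose, 2 fell and 7 did not pass, with a median difference of 0.67. Among all genes, 14.3% were higher and 13.6% lower. Sox10, a Sox factor present throughout the lineage, had 910 and 682 at E14.5, against 55.8 and 17.4 at E11.5, and rose by 4.16 ± 0.33 (log2 difference ± SE, n = 2 arrays per group, limma adjusted p = 2.0e-05). Its relative Sox8 had 371 and 374 at E14.5, against 41.2 and 39.5 at E11.5 (2.87 ± 0.19, limma adjusted p = 7.0e-06). Myrf, the factor that switches on myelin genes, had 132 and 98.4 at E14.5, against 13.2 and 9.82 at E11.5, and rose by 2.42 ± 0.30 (limma adjusted p = 0.00034). Nfix, a nuclear factor I protein of glial cells, rose by 2.73 ± 0.13. Hdac2, a histone deacetylase required in the lineage, had 2101 and 1901 at E14.5, against 2269 and 2391 at E11.5, and did not pass (-0.22 ± 0.12). Etv5, a target of FGF signalling, did not pass either (0.32 ± 0.15). Sox11 fell, with 1442 and 1406 at E14.5, against 3204 and 2749 at E11.5 (-1.05 ± 0.13, limma adjusted p = 0.00026). All 6 of its tested probe sets were called lower. Hdac1 fell by less (-0.47 ± 0.14, limma adjusted p = 0.036). The count of 2 that fell became 1 without E14.5 replicate 1, without E14.5 replicate 2 or without E11.5 replicate 1.

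Other genes highly expressed in oligodendrocyte precursors were higher for 16 of 24 tested, lower for 1 and past the test in neither direction for 7. Their median was 1.65, and among all genes 14.3% were higher and 13.6% lower. Omg, a surface glycoprotein of the lineage, had 681 and 707 at E14.5, against 3.72 and 4.33 at E11.5 (5.45 ± 0.21, limma adjusted p = 5.4e-07). Rlbp1, a retinoid-binding protein, had 1514 and 1294 at E14.5, against 34.7 and 54.6 at E11.5 (4.66 ± 0.20), and Lhfpl3 rose by 4.37 ± 0.20. Of the proteoglycans, Bcan had 5116 and 5740 at E14.5, against 650 and 572 at E11.5 (3.13 ± 0.13), and Cspg5 rose by 3.10 ± 0.13. The receptor phosphatase Ptprz1 had 4701 and 5031 at E14.5, against 2727 and 2115 at E11.5, and rose by 1.01 ± 0.14. Vcan, a proteoglycan found in precursors and in other cells, was the member that fell, with 607 and 678 at E14.5, against 1495 and 1447 at E11.5 (-1.18 ± 0.13, limma adjusted p = 0.00015). Cacng4, a subunit that modulates AMPA receptors, had 485 and 593 at E14.5, against 515 and 583 at E11.5, and did not pass (-0.03 ± 0.16). The sulfatase Sulf2 did not pass (-0.38 ± 0.16), but it passed as lower without E14.5 replicate 2 (-0.59). The count of 1 that fell became 3 without E14.5 replicate 2 and 2 without E11.5 replicate 2.

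Of 20 ligands, other receptors and signal proteins of the PDGF pathway, 2 rose, 3 fell and 15 did not pass (median 0.080), which is close to the 14.3% higher and 13.6% lower among all genes. The ligand Pdgfa had 173 and 177 at E14.5, against 127 and 130 at E11.5, and did not pass (0.41 ± 0.18). Pdgfc, another ligand of the same receptor, had 162 and 146 at E14.5, against 314 and 332 at E11.5, and fell (-1.01 ± 0.17, limma adjusted p = 0.0018). Pik3r1, the regulatory subunit of PI 3-kinase, rose by 1.36 ± 0.13 (limma adjusted p = 5.7e-05). The kinase Src rose by 0.63 ± 0.17, with 1 of its 2 tested probe sets called. The Ras regulator Rasa1 fell (-0.48 ± 0.14), with 1 of 3 called. The call of Src was lost without E14.5 replicate 2 (0.57) and without E11.5 replicate 2 (0.60). That of Rasa1 was lost without E14.5 replicate 1 (-0.48), E14.5 replicate 2 (-0.48) or E11.5 replicate 2 (-0.37). The phosphatase Ptpn11 (-0.03 ± 0.14) and the adaptor Crkl (0.11 ± 0.15) did not pass. The count of rises became 1 without E14.5 replicate 2 or E11.5 replicate 2, and that of falls became 1 without E14.5 replicate 1, E14.5 replicate 2 or E11.5 replicate 2.

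Of 11 hedgehog pathway genes tested, 2 rose, 2 fell and 7 did not pass (median -0.13), against 14.3% higher and 13.6% lower among all genes. Gli3, the repressor that opposes hedgehog signals, had 217 and 227 at E14.5, against 1129 and 1335 at E11.5, and fell (-2.40 ± 0.15, limma adjusted p = 3.9e-06). Gli2, an activator of the pathway, fell by 1.35 on the log2 scale. The receptor Ptch1, itself a target of the pathway, had 1455 and 1475 at E14.5, against 1049 and 710 at E11.5. It rose by 0.75 ± 0.17 (limma adjusted p = 0.011), with 1 of its 3 tested probe sets called. Gli1 had 13.1 and 41.0 at E14.5, against 68.8 and 46.8 at E11.5, and did not pass (-0.91 ± 0.40). Hhip was below the filter, with 15.4 and 1.85 at E14.5, against 28.9 and 23.4 at E11.5. The co-receptor Gas1 rose by 0.47 ± 0.12, also with 1 of 3 probe sets called. Gas1 lost its call without E14.5 replicate 1 (0.50), E14.5 replicate 2 (0.44) or E11.5 replicate 1 (0.39), each of which left 1 rise. Smo, the signal transducer, had 713 and 583 at E14.5, against 706 and 613 at E11.5, and Cdon, a co-receptor, had a difference of -0.13 ± 0.21. Neither passed the test. Without E14.5 replicate 2, 4 genes of the list were lower.

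Of the close relatives tested, 2 of 7 receptor relatives rose and 0 fell, 0 of 2 matrilins passed, and 1 of 3 Nkx2 genes fell and 0 rose, against 14.3% of all genes higher and 13.6% lower. Calcrl, the receptor that joins Ramp1, had 70.0 and 136 at E14.5, against 15.8 and 13.1 at E11.5. It rose by 2.05 ± 0.35 (limma adjusted p = 0.0020), with 1 of its 2 tested probe sets called. Ramp2, which gives that receptor affinity for adrenomedullin, had 118 and 183 at E14.5, against 60.7 and 63.5 at E11.5, and rose by 1.10 ± 0.25 (limma adjusted p = 0.0095), a call lost without E14.5 replicate 2 (0.81). Ramp3 had a difference of -0.90 ± 0.34, the ligand Adm 0.37 ± 0.35 and the receptor component Crcp 0.01 ± 0.19, and none of these passed. Of the receptors related to Gpr17, Cysltr2 (0.91 ± 0.44) and P2ry13 (-0.50 ± 0.35) did not pass, although Cysltr2 passed without E14.5 replicate 1 (1.49). Among those below the filter, P2ry12 had 24.2 and 44.3 at E14.5, against 8.21 and 2.02 at E11.5. Oxgr1 (14.8 and 35.7, against 9.83 and 8.52) and P2ry14 (20.0 and 23.6, against 19.0 and 3.09) were also higher on both E14.5 arrays. Of all probe sets, 26.7% had this order. The groups of Cysltr1 overlapped. The matrilins Matn2 (0.40 ± 0.38) and Matn3 (-0.80 ± 0.36) did not pass. Among other Nkx2 genes, Nkx2-1, a homeobox factor of the ventral telencephalon, had 28.9 and 4.64 at E14.5, against 48.2 and 72.2 at E11.5, and fell (-1.44 ± 0.45, limma adjusted p = 0.042). That call was lost without E14.5 replicate 2 (-0.79) or E11.5 replicate 2 (-1.20). Nkx2-3 (0.19 ± 0.41) and Nkx2-6 (0.15 ± 0.30) did not pass. Olig3, the third Olig gene, was below the filter with 4.57 and 12.2 at E14.5, against 10.7 and 9.77 at E11.5.

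Genes of later oligodendrocytes gave a mixed picture. Of 18 tested, 9 rose, 2 fell and 7 did not pass (median 0.56), against 14.3% higher and 13.6% lower among all genes. Cnp, an enzyme of myelinating cells that appears early in their differentiation, had 2613 and 2655 at E14.5, against 379 and 266 at E11.5 (3.01 ± 0.17, limma adjusted p = 2.3e-06). Gal3st1, the enzyme that sulfates the myelin lipid galactocerebroside, rose by 2.41 ± 0.25, and the calcium channel Itpr2 by 2.25 ± 0.36. Tmem163, a zinc transporter, fell the most, with 11.4 and 4.71 at E14.5, against 234 and 239 at E11.5 (-3.64 ± 0.28). Mbp, a main protein of compact myelin, had 136 and 135 at E14.5, against 205 and 169 at E11.5, and did not pass (-0.42 ± 0.19; 0.20 with its probe sets averaged). The orphan receptor Gpr37 did not pass either (-0.02 ± 0.27). Mag, a myelin glycoprotein, had 25.4 and 33.8 at E14.5, against 31.4 and 46.1 at E11.5, and did not pass (-0.28 ± 0.34). Mog, a protein of the myelin surface, was below the filter, with 1.94 and 4.17 at E14.5, against 2.24 and 2.22 at E11.5. Also below it, Cldn11 had 26.9 and 34.1 at E14.5, against 2.84 and 5.86 at E11.5. Gjb1 had 22.6 and 34.6 at E14.5, against 1.49 and 4.86, and Enpp6 22.2 and 17.2, against 3.94 and 7.88. Cldn11, Gjb1 and Enpp6 were thus higher on both E14.5 arrays, an order that 26.7% of all probe sets had. Their E11.5 signals all lay below the pseudocount. The groups of Mog, Opalin and Gjc3 overlapped. Without the filter, 11 genes of the list were higher and 1 lower. The count of 2 that fell became 1 without E11.5 replicate 1 or E11.5 replicate 2.

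**Figure D3:**
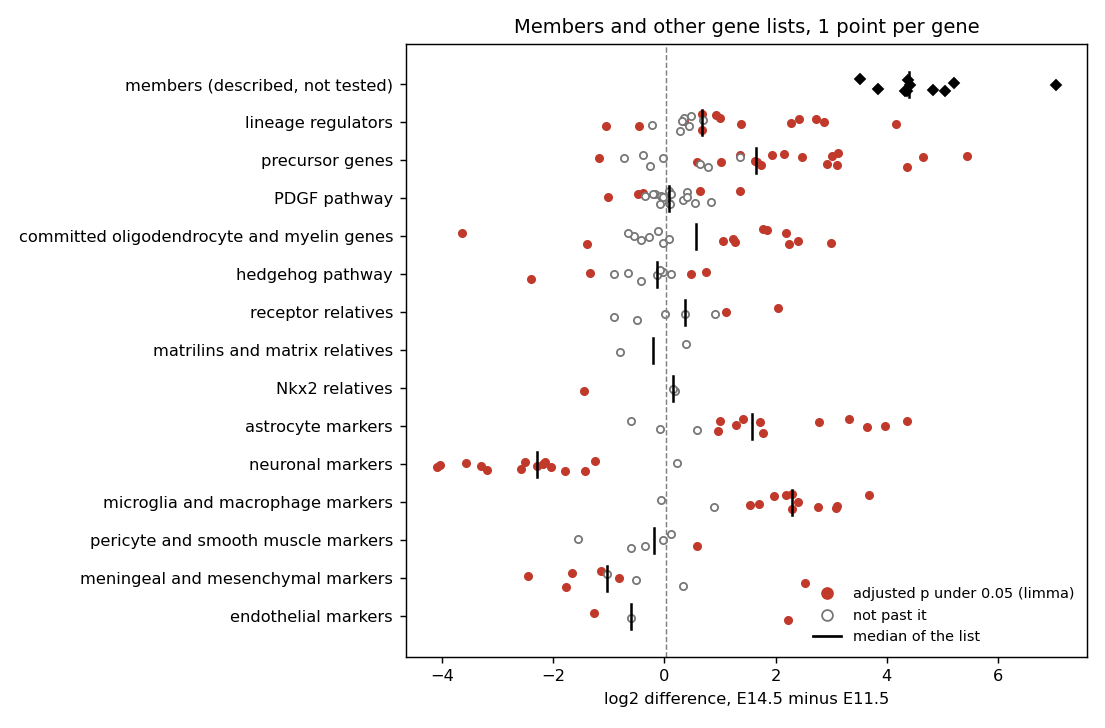
Log2 difference, E14.5 minus E11.5, of the 10 genes (black diamonds, brightest probe set) and of the tested genes of each other list (red where the limma adjusted p was under 0.05, open otherwise), with a short line for each median and a dashed line at the median of all genes. The 10 genes lie between 3.51 and 7.05, and the medians of the other lists between -2.30 and 2.29. Single genes of other lists lie within the range of the 10, among them Omg (5.45), Apoe (4.37), Sox10 (4.16) and C1qa (3.68).

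Markers of other cell types differed between the groups beside these genes. Astrocyte markers rose for 11 of 14 tested and fell for 0, and their summed signal was 26483 and 22116 at E14.5, against 6822 and 7044 at E11.5. Apoe, a lipid carrier, rose by 4.37 ± 0.23 and Aqp4, a water channel, by 3.96 ± 0.21. Without E14.5 replicate 1 or E11.5 replicate 2, 1 astrocyte marker fell, Gja1 (-0.99 and -0.83). Microglia and macrophage markers rose for 11 of 13 and fell for 0, among them C1qa, a complement protein (3.68 ± 0.27), with sums of 2712 and 2609 at E14.5, against 393 and 525 at E11.5. Neuronal markers fell for 14 of 15 and rose for 0, with sums of 5730 and 5496 at E14.5, against 18668 and 19803 at E11.5. The part of these cells in the signals of the 10 genes was not tested.

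Pericytes are also known to express Cspg4, and mesenchymal cells Pdgfra. Of 6 pericyte and smooth muscle markers tested, 1 rose, with 1 of its 2 tested probe sets called, and 0 fell. The riser was Notch3, a receptor also present in neural progenitors (0.58 ± 0.17), whose call was lost without E14.5 replicate 1 (0.55), E14.5 replicate 2 (0.60) or E11.5 replicate 2 (0.35). The list summed to 1584 and 1354 at E14.5, against 1310 and 1571 at E11.5, so its groups overlapped. Of these markers, 1 fell without E14.5 replicate 1, and 2 fell without E11.5 replicate 1. Among the markers below the filter, Anpep, a surface peptidase, had 33.9 and 38.2 at E14.5, against 15.1 and 2.46 at E11.5. Vtn, a matrix protein, had 17.3 and 15.8 at E14.5, against 2.75 and 10.8 at E11.5. Kcnj8 had 19.1 and 4.65 at E14.5, against 4.32 and 2.17 at E11.5. Anpep, Vtn and Kcnj8 were thus higher on both E14.5 arrays, an order that 26.7% of all probe sets had. The groups of Abcc9 overlapped. Myh11 and Higd1b were lower on both. Myh11 had 10.5 and 2.22 at E14.5, against 17.8 and 18.8 at E11.5. Higd1b had 1.49 and 1.29 at E14.5, against 14.5 and 14.9 at E11.5. Several signals of these markers lay below the pseudocount, where signals have little meaning. The defining pericyte receptor Pdgfrb had 38.2 and 23.5 at E14.5, against 50.1 and 34.8 at E11.5 (-0.35 ± 0.34, not past the test). Meningeal and mesenchymal markers fell for 5 of 9 and rose for 1, the surface protein Thy1 (2.52 ± 0.32). The largest falls were those of Igf2 (-2.46 ± 0.34), Lum (-1.78 ± 0.24) and Fn1 (-1.66 ± 0.29, with 1 of 2 tested probe sets called). The list summed to 1250 and 925 at E14.5, against 2036 and 2293 at E11.5. Endothelial markers had 3 of 11 above the filter, of which Plvap rose (2.23 ± 0.36) and Egfl7 fell (-1.26 ± 0.34), the call of Egfl7 being lost without E14.5 replicate 2 (-0.85) or E11.5 replicate 1 (-0.96). Egfl7 had 1 of its 3 tested probe sets called. The endothelial markers summed to 245 and 245 at E14.5, against 375 and 295 at E11.5. The part of pericytes, mesenchymal and endothelial cells in the signals of Cspg4 and Pdgfra was not tested.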

How the data were processed

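Each array's deposited table gives an intensity on a linear scale for every probe set, made by the authors with GCOS per the submitters' processing notes, with version and settings not given in the sources used here; detection calls were not used. Samples were grouped by their titles. The 64 control probe sets were set aside. Genes were named from the platform annotation where it gives 1 gene (34945 of 45037 probe sets); RefSeq identifiers updated 0 symbols and 204 probe sets had no match. Each array was multiplied to a common 2% trimmed mean, the 25th percentile of scaled values (12.2) was added before log2, and probe sets with a mean at or above the 40th percentile (26.0) were tested, 27022 in all. limma 3.58.1 in R 4.3.3 (lmFit, eBayes with a variance trend, E14.5 minus E11.5, Benjamini-Hochberg over all tested probe sets) had 2 residual and 7.99 prior degrees of freedom, and was checked on simulated data. A gene is represented by its brightest tested probe set; sums of marker signals take the brightest probe set of every listed gene.

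The members, lists and naming rule were chosen with earlier results of these data known. The rule names, per list, up to 4 called genes by size and up to 2 others by signal, all tested genes of the short lists of relatives, and Sox10, Ptprz1, Vcan and Cspg5. Pdgfa, Pdgfrb, Mag, Mog, Olig3, Anpep and Vtn were added after their values were seen. The same holds for Kcnj8, Abcc9, Myh11, Higd1b, Enpp6, Cldn11, Gjb1, Gjc3, Opalin, Gli1 and Hhip. Sox11, Hdac1, P2ry12, P2ry14, Oxgr1 and Cysltr1 were likewise added after their values were seen.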

Additional observations from a re-analysis of the deposited data

How the results depend on the processing

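With arrays left as deposited, 400 probe sets were called higher, against 3012 after scaling, and 36 genes of the other lists, against 67. Without the variance trend, 1919 probe sets were higher and 2097 lower, against 3012 and 3396 with it. Leaving out 1 array gave 2256 to 3148 higher and 2750 to 3405 lower probe sets, and 62 to 67 higher and 30 to 31 lower list genes. The median difference of the 10 members was 3.93 with arrays as deposited, 5.51 and 3.79 with the pseudocount at an eighth and at the median of all signals, 3.81 with probe sets averaged, and 4.46 to 4.66 without 1 array, against 4.40; the brightest probe set of each member kept its sign throughout. The dim Bcas1 probe set 1453641_at ran from -0.41 to 0.35 without 1 array. The replicate numbers share only a number: the differences between replicates 1 and 2 correlated at r = 0.0041 between groups, and with the replicate block 3312 probe sets were higher and 3861 lower.

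Signs turned with arrays as deposited, by the lower level of the E14.5 arrays, for Etv5 (-0.45), Src (-0.11), Crkl (-0.66), Ptch1 (-0.016), Gas1 (-0.30), Adm (-0.28), Crcp (-0.74), Matn2 (-0.12), Nkx2-3 (-0.45), Nkx2-6 (-0.45), Cd44 (-0.15), Map2 (-0.55), Notch3 (-0.19) and Dcn (-0.29). The other signs that turned belong to genes that did not pass the test, and the cause was not tested: with quantile normalization, Cacng4 (0.0026) and Gpr37 (0.0097); at a common median, Crcp (-0.033); with probe sets averaged, Ptpn11 (0.054), Crkl (-0.15), Mbp (0.20), Map2 (-0.16) and Trem2 (0.97). Over the fits without 1 array, signs turned within -0.17 to 0.11 for Cacng4, -0.19 to 0.14 for Ptpn11, -0.024 to 0.24 for Crkl, -0.25 to 0.20 for Gpr37, -0.17 to 0.11 for Smo, -0.47 to 0.21 for Cdon, -0.12 to 0.86 for Adm, -0.23 to 0.25 for Crcp, -0.47 to 0.84 for Nkx2-3 and -0.59 to 0.48 for Trem2. These fits leave 1 array in a group, which is assumed to vary like the other group. Of the genes named by size or signal under the rule, 7 lost their call without the variance trend (Src, Rasa1, Ptch1, Gas1, Nkx2-1, Notch3 and Egfl7). Without the filter, 5 lost it (Rasa1, Gas1, Nkx2-1, Notch3 and Egfl7). Among the same genes, calls were also lost with arrays as deposited for Pik3r1 (0.59), Rasa1 (-1.25) and Ramp2 (0.41). At a common median they were lost for Gas1 (0.43) and Notch3 (0.54), and with the smaller pseudocount for Nkx2-1 (-2.14). With probe sets averaged they were lost for Rasa1 (-0.45) and Egfl7 (-0.44). Hdac2 passed as lower with quantile normalization (-0.34) and with probe sets averaged (-0.39).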

Other observations

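The genes that flank the 10 in the RefSeq order were examined after the values of the members had been seen. Olig1 and Olig2 are each other's nearest tested neighbour. Of the 18 other neighbours, 5 were higher, 2 lower and 11 past the test in neither direction, with a median difference of 0.21, against 14.3% higher and 13.6% lower among all genes. Lims2, an adaptor at sites of cell adhesion, had 211 and 264 at E14.5, against 22.9 and 14.8 at E11.5 (3.01 ± 0.26, limma adjusted p = 2.8e-05), and it is also among the precursor genes tested above. The RefSeq span of Gpr17 lies inside that of Lims2, and whether the probe set of either detects transcripts of the other was not tested. Next to Pdgfra, the receptor kinase Kit had a mean of 317 at E14.5 and 157 at E11.5 and rose by 0.96 ± 0.25, whereas Gsx2 on the other side did not pass (-0.14 ± 0.20). Ifnar2, an interferon receptor beside Olig1, rose by 0.90 ± 0.19, Snx33 beside Cspg4 by 1.02 ± 0.17 and Fbxo8 beside Scrg1 by 1.09 ± 0.15. The neighbours that fell were Zfp217 beside Bcas1 (-0.95 ± 0.22) and Sap30 beside Scrg1 (-0.55 ± 0.13).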
